A study of Mus musculus with 8 samples.

Results

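The cortex of the mammalian forebrain is built from layers of excitatory neurons, and a small set of transcription factors sets the identity of these layers during development and stays on in the adult. Bulk RNA-seq of whole brains was used here to ask how abundant the transcripts of 9 such factors were in the adult mouse and how much they varied between animals. The 9 genes are Neurod2 and Neurod6, which are shared by many cortical and hippocampal excitatory neurons, Cux1, Cux2 and Rorb, which are known from the upper layers, and Tbr1, Fezf2, Bcl11b and Foxp2, which are known from the deep layers. They were found by an exact match of the gene symbol in the deposited table, which holds 24343 genes, and all 9 were present. All 9 also passed the filter of a mean of at least 1 FPKM that 13001 genes passed, where FPKM is the number of sequenced fragments scaled to transcript length and library size, and so puts genes of different length on one scale.

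The 8 libraries came from 3 untreated C57BL/6NCrl mice 56 to 62 days of age, of which mouse 1 and mouse 2 gave 3 libraries each and mouse 3 gave 2. There was 1 condition, so that the mice were the groups compared. The labels give neither the sex of these mice nor what the library numbers stand for. Each library held an estimated 11500000 to 16900000 fragments, and 1.31 to 2.02 gigabases lay on transcripts. The libraries of mouse 3 stood apart from the others. In them the deviation of a gene from its mean over all libraries fell with transcript length (Spearman's rho across genes -0.365 and -0.576), whereas it rose with length in the other 6 (rho from 0.183 to 0.503). Because that mean includes every library, the signs in mouse 3 and in the other 6 are not independent.

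In the adult cortex, NEUROD2 and NEUROD6 are basic helix-loop-helix activators of the excitatory programme. CUX1 and CUX2 are homeodomain proteins of upper-layer neurons, and RORB is a nuclear receptor that marks the layer receiving thalamic input. TBR1 is a T-box factor of neurons projecting to the thalamus, FEZF2 and BCL11B (also called CTIP2) act in neurons projecting below the cortex, and FOXP2 is a forkhead factor of the deepest layers. None of them is confined to the cortex: Bcl11b and Foxp2 are also known from the striatum, Foxp2 and Rorb from the thalamus, and Cux1 is used widely. A library of the whole brain does not separate these sources, and fewer cells of a type cannot be told apart from less RNA per cell.

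For 4 of the 9 genes the deposited table holds several transcripts that overlap. Stretches that tell some of these transcripts apart are shown, since the transcript values below rest in part on reads there. The sequences are coding strand, 5′ to 3′, from GENCODE vM21 on GRCm38. For Cux1, on the minus strand of chromosome 5, the lower-case bases are the end of the last exon shared by both transcript classes, chr5:136314307-136314346, and the capitals are the start of the exon that follows. In NM_198602 that exon begins at the far 3′ side of the gene (capitals at chr5:136258001-136258040). In NM_009986 (capitals at chr5:136312969-136313008) and NM_001291234 (capitals at chr5:136313275-136313314) it leads on to the exons that encode the homeodomain.
NM_198602: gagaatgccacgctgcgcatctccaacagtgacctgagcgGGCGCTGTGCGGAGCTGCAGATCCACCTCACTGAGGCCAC
NM_009986: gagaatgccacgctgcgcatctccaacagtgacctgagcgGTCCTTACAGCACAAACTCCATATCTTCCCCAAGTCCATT
NM_001291234: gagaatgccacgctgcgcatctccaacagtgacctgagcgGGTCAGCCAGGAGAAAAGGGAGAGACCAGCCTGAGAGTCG

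For Rorb, on the minus strand of chromosome 19, the transcripts begin at different first exons, and the capitals are the coding part of each. That part has 7 bases in NM_001043354, whose first exon is the distal one (chr19:19110552-19110558), and 40 bases in NM_146095 (chr19:19001007-19001046). The lower-case bases belong to the exon that both share.
NM_001043354: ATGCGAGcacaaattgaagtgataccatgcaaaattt
NM_146095: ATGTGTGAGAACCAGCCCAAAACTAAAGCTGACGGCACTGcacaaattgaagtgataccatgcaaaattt

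For Foxp2, on the plus strand of chromosome 6, NM_212435 holds 63 coding bases (capitals, chr6:15377888-15377950) that NM_001286607 lacks. For Bcl11b, on the minus strand of chromosome 12, NM_001079883 holds a further coding exon (capitals, chr12:107965672-107965887) that NM_021399 lacks.
NM_212435: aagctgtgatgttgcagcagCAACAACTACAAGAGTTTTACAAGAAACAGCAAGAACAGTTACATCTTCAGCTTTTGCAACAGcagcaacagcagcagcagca
NM_001079883: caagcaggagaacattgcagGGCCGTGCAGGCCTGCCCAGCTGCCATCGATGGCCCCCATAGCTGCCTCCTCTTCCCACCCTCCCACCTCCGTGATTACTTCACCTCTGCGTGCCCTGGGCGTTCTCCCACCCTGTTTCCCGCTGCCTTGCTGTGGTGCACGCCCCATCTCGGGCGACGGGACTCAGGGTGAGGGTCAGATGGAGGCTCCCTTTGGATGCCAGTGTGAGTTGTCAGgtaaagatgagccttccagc

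The mean levels of the 9 genes ranged from 3.37 FPKM for Foxp2 to 23.4 FPKM for Cux1, a ratio of 6.95. Between them, in falling order, came Neurod6 (19 ± 3.55 FPKM), Neurod2 (15.9 ± 3.14), Tbr1 (15.4 ± 3.64), Cux2 (9.26 ± 0.774), Bcl11b (9.14 ± 1.96), Fezf2 (5.11 ± 1.16) and Rorb (4.7 ± 0.492), each as the mean ± SD of 3 mice. Cux1 had an SD of 1.25 FPKM and Foxp2 one of 0.993 FPKM. Among the genes tested, Cux1 lay at the percentile 77.9 of mean level and Foxp2 at 21.7. Upper-layer and deep-layer genes were interleaved in this order.

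**Figure D1:**
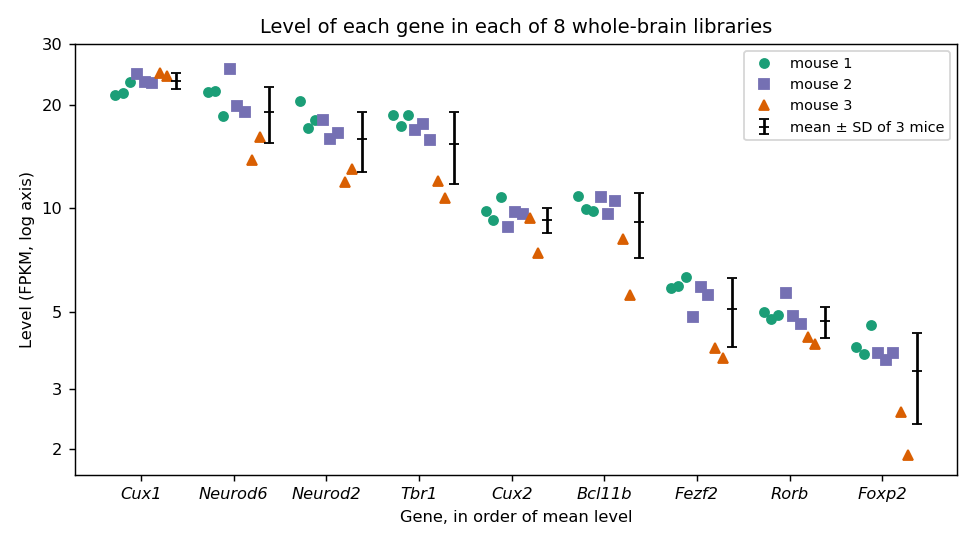
Level of each of the 9 genes in each library (FPKM, log axis), with points coloured by mouse and the mean ± SD of the 3 mouse means beside them. Cux1 sits highest with a mean of 23.4 FPKM and Foxp2 lowest with 3.37 FPKM, and the libraries of mouse 3 are the lowest points for 7 of the 9 genes.

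Of the 8 pairs of neighbours in this order, 4 were apart in every mouse, in the sense that the ranges of the mouse means did not overlap. Tbr1 was 1.67 times Cux2, Bcl11b was 1.79 times Fezf2 and Rorb was 1.4 times Foxp2, each in 8 of 8 libraries. Cux1 lay above Neurod6 in the mean of each mouse but in only 5 of 8 libraries. The other 4 pairs overlapped: Neurod6 with Neurod2, although Neurod6 was the higher in 8 of 8 libraries, Neurod2 with Tbr1 (4 of 8), Cux2 with Bcl11b (4 of 8) and Fezf2 with Rorb (5 of 8). A sign test over 3 mice cannot give a two-sided exact p below 0.25, and the order was not tested.

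The depth behind these values was moderate. In genes with 1 transcript, where fragments can be estimated, Tbr1 rested on 576 to 1180 fragments per library, Neurod2 on 490 to 889, Cux2 on 495 to 888, Neurod6 on 375 to 629 and Fezf2 on 111 to 222. The counting error alone was then 4.17% to 2.91% for Tbr1 and 9.51% to 6.71% for Fezf2, as 1 SD. It covers counting only.

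Mouse 3 was compared with mice 1 and 2 by a limma contrast on log2(FPKM + 1). Of the 9 genes, 6 were lower in mouse 3 and none was higher, with a Benjamini-Hochberg adjusted p under 0.05. In this contrast 17.5% of all 13001 genes tested were lower (2271) and 20.4% were higher (2650). The median difference of the 9 genes was -0.47, beside 0.02 over all genes tested. The 6 genes were both broad factors and all 4 deep-layer factors, and the 3 upper-layer factors did not pass. Whether deep and upper genes differed from each other was not tested. The moderated F-test over the 3 mice called 5 of the 9 genes, those 6 without Neurod6, beside 25.5% of all genes tested. Both libraries of mouse 3 lay below all 6 others for 7 of the 9 genes, beside 21.7% of all genes tested. Replicate 2 of mouse 3 weighed most on these counts. Without it, 4 of the 9 genes were lower in mouse 3 (Neurod2, Tbr1, Fezf2 and Foxp2), beside 5.49% of all genes tested, and the limma F-test called 0 of the 9, with an unadjusted p under 0.05 for 6.

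Neurod2 (chr11:98325417-98329645), an activator of genes for synapse formation, had 20.5, 17.1 and 18.1 FPKM in mouse 1, 18, 15.9 and 16.5 FPKM in mouse 2, and 11.9 and 13 FPKM in mouse 3. The libraries of mouse 3 did not overlap those of the others. Its level in mouse 3 was 0.705 times that in mice 1 and 2 (log2 difference -0.47 ± 0.0911 SE, limma adjusted p = 0.00643). Neurod6 (chr6:55677819-55681263), its close relative, had 21.8, 21.9 and 18.5 FPKM in mouse 1, 25.3, 19.8 and 19.1 FPKM in mouse 2, and 13.8 and 16.1 FPKM in mouse 3. Again the groups did not overlap, but Neurod6 also had the largest spread within mice of the 9 genes, with a coefficient of variation of 13.7%. The difference was -0.47 ± 0.125 SE (limma adjusted p = 0.0205), and its F-test did not pass (adjusted p = 0.0581). Without mouse 3 replicate 1 the difference was -0.36 (adjusted p = 0.121), and without mouse 3 replicate 2 it was -0.57 (adjusted p = 0.0703).

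Among the deep-layer genes, Tbr1 (chr2:61804453-61814113) had 18.7, 17.3 and 18.7 FPKM in mouse 1, 16.9, 17.6 and 15.8 FPKM in mouse 2, and 12 and 10.7 FPKM in mouse 3. All 6 libraries of mice 1 and 2 were above both of mouse 3, and the level of mouse 3 was 0.648 times that of the others (log2 difference -0.58 ± 0.0801 SE, limma adjusted p = 0.00247). Fezf2 (chr14:12341892-12345865), a zinc-finger factor that directs neurons to project to the spinal cord, had 5.87, 5.97 and 6.34 FPKM in mouse 1 and 4.83, 5.91 and 5.62 FPKM in mouse 2. In mouse 3 it had 3.94 and 3.69 FPKM, below every other library, with a log2 difference of -0.49 ± 0.0852 SE (limma adjusted p = 0.00472).

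Bcl11b (chr12:107910403-108003414), a zinc-finger factor downstream of Fezf2 and also a factor of striatal projection neurons, had 10.9, 9.94 and 9.84 FPKM in mouse 1 and 10.8, 9.66 and 10.5 FPKM in mouse 2. Its libraries of mouse 3 differed from each other, with 8.14 and 5.62 FPKM, and both were below the others. The log2 difference was -0.53 ± 0.12 SE (limma adjusted p = 0.0106). It was -0.30 with an adjusted p of 0.082 without mouse 3 replicate 2. Foxp2 (chr6:14901349-15441977), whose human counterpart is known from a speech disorder, had 3.96, 3.78 and 4.59 FPKM in mouse 1, 3.81, 3.63 and 3.81 FPKM in mouse 2, and 2.56 and 1.92 FPKM in mouse 3. Of the 9 genes it had the largest difference (0.57 times the level of mice 1 and 2, log2 difference -0.61 ± 0.0982 SE, limma adjusted p = 0.00358) and the largest coefficient of variation between mice (29.5%).

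Among the upper-layer genes, Cux2 (chr5:121860216-122047825) had 9.81, 9.25 and 10.8 FPKM in mouse 1, 8.85, 9.75 and 9.61 FPKM in mouse 2, and 9.39 and 7.45 FPKM in mouse 3. Its groups overlapped, since only replicate 2 of mouse 3 was below the rest. The log2 difference was -0.19 ± 0.0993 SE and did not pass (limma adjusted p = 0.167), but without mouse 3 replicate 1 it was -0.34 with an adjusted p of 0.0356, and without mouse 3 replicate 2 it was -0.04 with an adjusted p of 0.825. Rorb (chr19:18930609-19111196) had 5.02, 4.79 and 4.9 FPKM in mouse 1, 5.7, 4.87 and 4.62 FPKM in mouse 2, and 4.24 and 4.05 FPKM in mouse 3. The libraries of mouse 3 were the lowest by a small margin, and the log2 difference of -0.22 ± 0.0838 SE did not pass (limma adjusted p = 0.0713).

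Cux1 (chr5:136248135-136567490) had 21.3, 21.6 and 23.2 FPKM in mouse 1, 24.6, 23.3 and 23.1 FPKM in mouse 2, and 24.7 and 24.3 FPKM in mouse 3. It was the only one of the 9 genes with a difference above 0 (0.10 ± 0.071 SE, limma adjusted p = 0.297), although that sign turned to -0.19 in TPM and -0.02 for its highest transcript, neither of which passed. Its coefficient of variation between mice, 5.34%, was the smallest of the 9 genes.

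**Figure D2:**
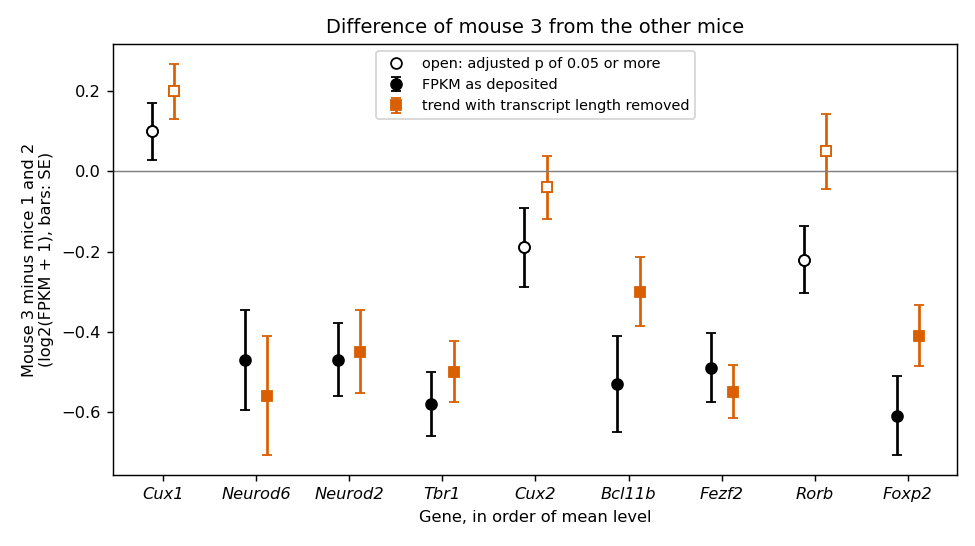
Difference of mouse 3 from mice 1 and 2 for each gene on the log2(FPKM + 1) scale (bars: SE), from the deposited FPKM (circles) and with the trend on transcript length taken out of every library (squares), with open symbols where the adjusted p was 0.05 or more. The same 6 genes are filled in both, between -0.47 and -0.61 as deposited and between -0.30 and -0.56 with the trend removed.

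Since the libraries of mouse 3 deviated with transcript length, the members were also read with that trend removed from each library. The same 6 genes were lower in mouse 3, beside 15.7% of all genes tested, and the F-test called 4 of the 9. Fezf2 then had a log2 difference of -0.55, Neurod6 -0.56, Tbr1 -0.50, Neurod2 -0.45, Foxp2 -0.41 and Bcl11b -0.30. Rorb, with a mean transcript length of 9223 nucleotides, moved from -0.22 to 0.05, and Cux2 from -0.19 to -0.04. Among genes within 1.2 times its length, Rorb lay at the percentile 62.4 of the difference, Cux2 at 43.1 and Cux1 at 77.8. Of the 6 genes lower in mouse 3, Neurod6 lay at 2.68, Tbr1 and Fezf2 each at 2.73, Foxp2 at 4.29, Neurod2 at 4.89 and Bcl11b at 11.3.

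The spread between mice was set beside that of genes at a similar level, within a factor of 1.5. The median coefficient of variation was 19.7% over the 9 genes, and 12.3% over all genes tested. Foxp2 lay at the percentile 92.2 of similar genes, Tbr1 at 86.6, Fezf2 at 86, Bcl11b at 84.5, Neurod2 at 78.2 and Neurod6 at 74.1. Rorb (43.2), Cux2 (35.3) and Cux1 (17.3) lay below the middle. Across the 8 libraries the 36 pairs of members had a median Pearson's r of 0.763 on the log2(FPKM + 1) scale, and the 8 genes other than Cux1 had a median of 0.792. Tbr1 and Foxp2 were the most alike (0.964), and Cux1 and Fezf2 the least (-0.72). These are descriptions over libraries that share mice and the trend with length.

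The 3 genes outside the members that most resembled their mean profile over the 8 libraries were Vopp1 (r = 0.998), Cntnap2 (r = 0.996), which encodes a neurexin-related adhesion protein, and Fndc3a (r = 0.996). In mouse 3 they had 22.4 and 20 FPKM, 16.2 and 15.1 FPKM, and 7.44 and 6.76 FPKM. These were below the other 6 libraries for each gene, among which Vopp1 began at 28 FPKM, Cntnap2 at 19 FPKM and Fndc3a at 9.23 FPKM. The mean profile of the members was itself lowest in mouse 3, so this followed from how the 3 genes were chosen. Both libraries of mouse 3 lay below all 6 others for 21.7% of all genes tested.

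The transcripts of Cux1 fell into 2 classes that encode different proteins, since one class leaves the gene at the far 3′ exons and so lacks the homeodomain. The 4 transcripts ending there are 3057 to 3352 nucleotides long and the 3 with the homeodomain exons 12912 to 13507. The far 3′ class had a mean of 20.5 ± 1.51 FPKM (SD, n = 3 mice) and made up 87.5% of the FPKM of Cux1. The homeodomain class had 2.91 ± 0.346 FPKM, or 12.5%. Because its transcripts are longer, it held a larger part of the bases read on Cux1, from 30.3% to 42% per library. The level of Cux1 given above is thus mainly that of transcripts without the homeodomain, and the homeodomain class alone had a mean near that of Foxp2.

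**Figure D3:**
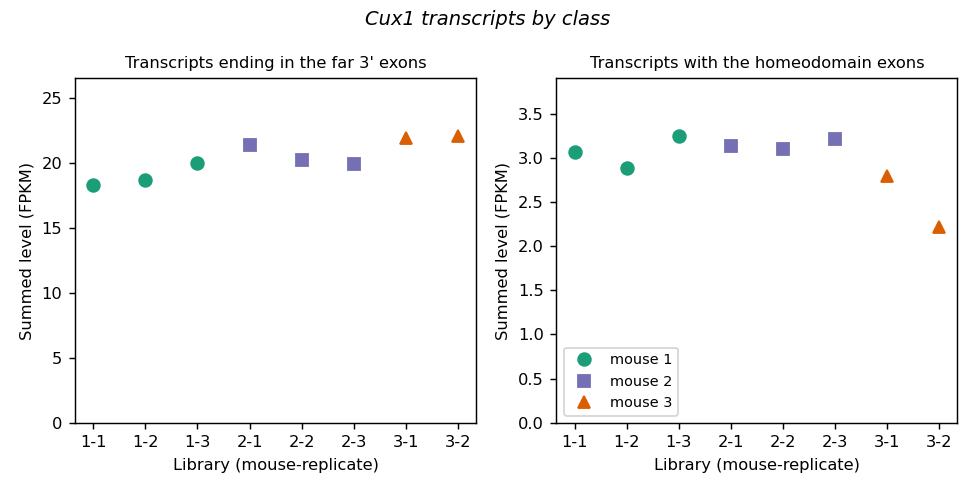
Summed level (FPKM) of the Cux1 transcripts ending in the far 3′ exons (left) and of those with the homeodomain exons (right) in each library, coloured by mouse, with axes that start at 0 and differ in scale. The far 3′ class lies between 18.3 and 22.1 FPKM, with mouse 3 highest, and the homeodomain class between 2.22 and 3.25 FPKM, with mouse 3 lowest.

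The homeodomain class had 3.07, 2.88 and 3.25 FPKM in mouse 1, 3.13, 3.1 and 3.21 FPKM in mouse 2, and 2.8 and 2.22 FPKM in mouse 3. The far 3′ class had 18.3, 18.7 and 20 FPKM in mouse 1, 21.4, 20.2 and 19.9 FPKM in mouse 2, and 21.9 and 22.1 FPKM in mouse 3. The libraries of mouse 3 were thus outside the others on opposite sides. With the classes as separate features, a split made after seeing the data, neither difference passed: -0.23 ± 0.0838 SE for the homeodomain class (limma adjusted p = 0.0591) and 0.15 ± 0.0719 SE for the far 3′ class (adjusted p = 0.128). The classes differ in length in the direction of the trend in mouse 3, and its part in this was not tested.

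Bcl11b was divided between NM_021399 (6.19 ± 1.63 FPKM, 66.9% of the gene) and NM_001079883, which holds the extra exon shown above (2.9 ± 0.704 FPKM, 32.4%). The latter had 3.45 to 3.89 FPKM in mouse 1 and 2.31 to 2.76 FPKM in the libraries of mice 2 and 3. Both transcripts had a lower bound above 0 in 8 of 8 libraries. For Rorb, the distal first exon held 89.4% of the FPKM on average. NM_146095, with the proximal first exon, ranged from 8.04e-04 to 2.24 FPKM and had a lower bound above 0 in 4 of 8 libraries, so that libraries of the same mouse disagreed.

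The estimates for Foxp2 were the least stable. NM_053242, which starts further upstream, had a mean of 1.69 ± 0.485 FPKM and was between 0.964 and 2.44 FPKM in the libraries. The pair that differs by the 63 bases shown above exchanged places: NM_212435 had 1.6 FPKM in mouse 3 replicate 1 and 0.0295 FPKM in replicate 2, and NM_001286607 had 1.65e-04 and 0.556 FPKM. The sum over transcripts is therefore the value to read for this gene.

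**Figure D4:**
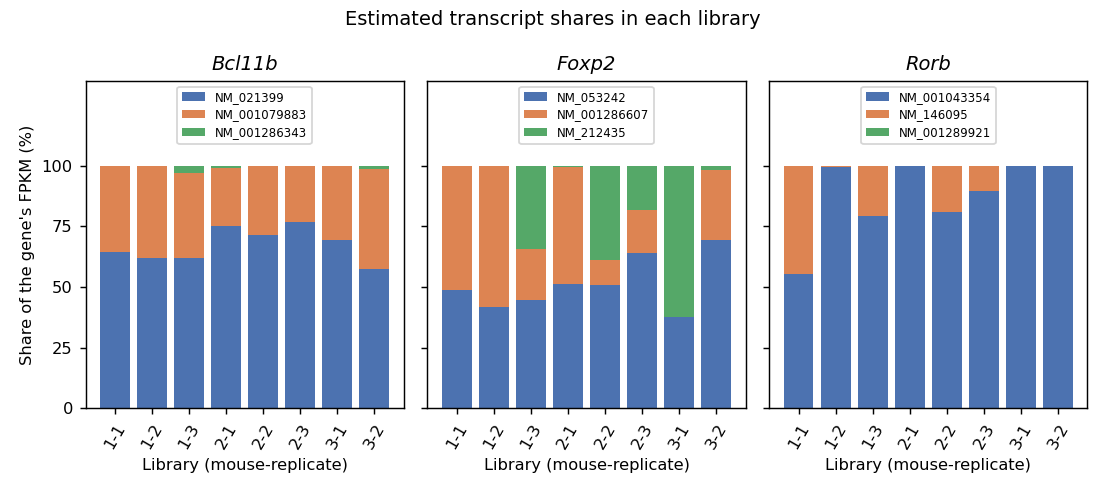
Share of each transcript in the FPKM of Bcl11b, Foxp2 and Rorb (%, stacked bars) in each library, named by mouse and replicate. The highest Bcl11b transcript keeps 57.5% to 76.8% in every library, whereas NM_212435 of Foxp2 ranges from 0.188% to 62.4%.

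Of 29 other transcription factors of cortical excitatory neurons, 13 were lower in mouse 3, none was higher and 16 did not pass. Over all genes tested, 17.5% were lower and 20.4% were higher. The median log2 difference of the list was -0.26, and -0.22 without mouse 3 replicate 2. The number lower was 7 with the highest transcript of each gene. It was 24 in TPM, the FPKM scaled to the same total in each library. Over all genes tested, 14% were lower with the highest transcript of each gene and 44.2% in TPM. The largest difference was that of Mef2c, an activity-dependent factor, with 33.4 FPKM in mouse 3 and 65.2 FPKM in mice 1 and 2 (-0.95 ± 0.0803 SE, limma adjusted p = 0.00146). Foxp1, a partner of Foxp2, had 9.64 FPKM in mouse 3 and 14.5 FPKM in mice 1 and 2 (-0.56 ± 0.108 SE, adjusted p = 0.00642). The smallest was that of Emx1, a factor of the developing cortex, at 0.01.

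Markers of other cell classes were read in the same contrast, in which 17.5% of all genes tested were lower and 20.4% were higher. Of 6 forebrain excitatory markers, 2 were lower and 1 was higher. Slc17a7, a vesicular glutamate transporter gene, had a log2 difference of -0.22 (limma adjusted p = 0.0773). The study describes Slc17a7 as dominant in the cerebellar cortex too, besides regions such as the isocortex and hippocampal formation. The smallest difference in the excitatory list was that of Camkv (-0.13). Of 6 inhibitory markers 4 were lower (1 without mouse 3 replicate 2), with Gad1 (-0.61) and Gad2 (-0.59), which make GABA, among them, while Slc32a1 (-0.33, adjusted p = 0.0651) did not pass. Of 8 striatal markers 3 were lower, led by Rgs9 (-0.73), and the dopamine receptor genes Drd1 (-0.02) and Drd2 (-0.34) did not pass. Rgs9 had 14.4 and 7.39 FPKM in mouse 3 and 17.2 to 19.1 FPKM in the others, and without mouse 3 replicate 2 its difference was -0.29 (adjusted p = 0.0674) and limma called 0 of the 8 striatal markers, with an unadjusted p under 0.05 for 2. Of 6 thalamic markers tested, 1 was lower, Tcf7l2 (-0.36), and Slc17a6 had the smallest difference (-0.10). In TPM limma called 6 of 6 thalamic, 8 of 8 striatal, 6 of 6 inhibitory and 5 of 6 excitatory markers lower. Over all genes tested, the share lower in TPM was 44.2%. Of 6 cerebellar markers tested, 1 was higher, Pcp2 of Purkinje cells (0.64), and 1 was lower, while Gabra6 (0.26) and Cbln1 (0.08) did not pass. Pcp2 had 106 and 179 FPKM in mouse 3 and 69.5 to 96.4 FPKM in the others. Its difference was 0.34 in TPM (limma adjusted p = 0.102) and -0.16 with the length trend removed (adjusted p = 0.287). Without mouse 3 replicate 2 it was 0.26. Further genes counted here, named after their values were seen, were Nrgn (-0.28) and Camk2a (0.53) of the excitatory list, Dlx1 (-0.46) and Dlx6 (-0.46) of the inhibitory list, Pde10a (-0.63, and -0.27 without mouse 3 replicate 2) and Ppp1r1b (-0.25) of the striatal list, and Zic1 (-0.29) of the cerebellar list. The summed level of the excitatory list was 1160 to 1250 FPKM in mouse 3 and 1060 to 1240 FPKM in the other libraries, although 5 of its 6 genes had a difference below 0, since Camk2a had 502 FPKM in mouse 3 and 345 FPKM in mice 1 and 2. That of the striatal list was 234 to 272 and 264 to 303 FPKM, that of the thalamic list 61.4 to 70.5 and 73.9 to 80.5 FPKM, and that of the cerebellar list 288 to 431 and 261 to 291 FPKM. The FPKM of all genes summed to 385000 and 410000 in mouse 3 and to 296000 to 346000 in the others. The list sums are not scaled to the same total, and the part of this in them was not tested.

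All 5 astrocyte markers were higher in mouse 3, from Aqp4 (0.45) to Gfap (1.03). Their summed level, again not scaled to the same total, was 523 to 559 FPKM in mouse 3 and 346 to 368 FPKM in the other libraries. In TPM 2 of these 5 were higher, beside 1025 of all 13001 genes tested. Without mouse 3 replicate 2 the median difference of the 5 was 0.53, beside 0.52 with all libraries. Of 6 oligodendrocyte markers 4 were higher, led by Mbp (1.27), with a sum of 3980 to 4900 FPKM in mouse 3 and 2070 to 2300 FPKM in the others, and Cldn11 had the smallest difference (0.17). Mbp alone had 2840 and 3500 FPKM in mouse 3 and 1250 to 1370 FPKM in the others. Of these 6 markers, 2 were higher in TPM. Without mouse 3 replicate 2 the median difference of the 6 was 0.26, beside 0.41 with all libraries. Of 5 microglial markers 2 were higher, with C1qa the largest (0.52) and Csf1r the smallest (-0.02), and the sums were 88.1 to 90.8 and 65.6 to 76.3 FPKM. With the length trend removed 1 of the 5 was higher, beside 2116 of all 13001 genes tested. C1qa then had a difference of 0.11 (limma adjusted p = 0.271). Without mouse 3 replicate 2 limma called 0 of the 5 microglial markers, with an unadjusted p under 0.05 for 2. Of 5 endothelial markers 2 were higher, with Ly6c1 the largest (0.85) and Pecam1 the smallest (0.12). Their sums were 104 to 112 FPKM in mouse 3 and 52.9 to 77.3 FPKM in the others. In TPM 1 of these 5 was higher. With the length trend removed 3 of the 5 were higher, and Ly6c1 had a difference of 0.32. Cldn5 then had one of 0.41 (limma adjusted p = 0.0558). Without mouse 3 replicate 2 the differences were 0.80 for Ly6c1 and 0.49 for Cldn5. Further glial and vascular genes counted, also named after their values were seen, were Mobp (1.22) and Mog (0.39), Slc1a3 (0.53), Gja1 (0.52) and Aldh1l1 (0.50), Cx3cr1 (0.35), and Cldn5 (0.68). No marker was at 0 in all libraries. The inhibitory sums were 208 to 251 FPKM in mouse 3 and 260 to 321 FPKM in the others. The part of these cells in the lower level of the 6 members was not tested.

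**Figure D5:**
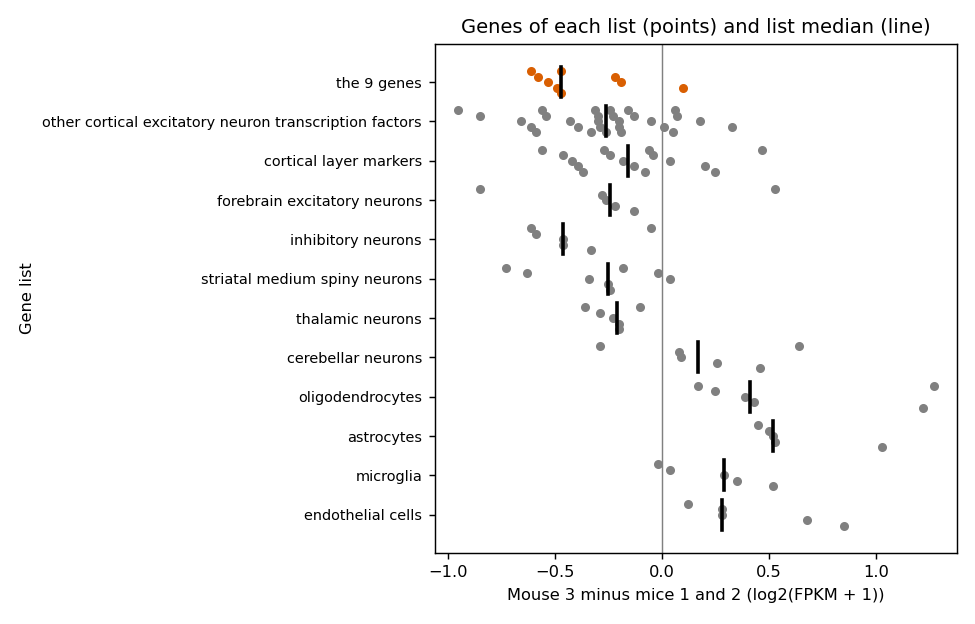
Difference of mouse 3 from mice 1 and 2 on the log2(FPKM + 1) scale for each gene of the 12 lists (points), with the median of each list (line). The median of the 9 genes is -0.47, those of the neuronal forebrain and thalamic lists lie between -0.46 and -0.16, and those of the 4 glial and vascular lists between 0.28 and 0.52.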

How the data were processed

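RNA from 3 whole brains of C57BL/6NCrl mice was made into 8 libraries with Kapa mRNA HyperPrep kits and sequenced on a NextSeq500. The submitters' processing notes name TopHat, Cufflinks and build mm10, without versions. Read length and strand setting are not given in the sources used here. The authors deposited FPKM (fragments scaled to transcript length and library size) for each of 34535 transcripts in each library, with bounds, and coverage, a signal per base that is not scaled for library size. Reads were divided between overlapping transcripts by estimation, so a sum over transcripts is more certain than its parts.

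From these files, the FPKM of a gene's transcripts were summed and averaged over libraries, then over mice. Differences were tested with limma (version 3.58.1, R 4.3.3) on log2(FPKM + 1) over 13001 of 24343 genes, those whose mean reached 1 FPKM. This scale understates the change of low genes. Both a moderated F-test over the 3 mice and a contrast of mouse 3 with the mean of mice 1 and 2 were used, with Benjamini-Hochberg adjustment over all genes tested and a threshold of 0.05. The procedure was tested on simulated data. The members, the gene lists and the contrast were chosen with earlier results of these data known. Named were all 9 members, the largest and smallest difference in each list, genes that define a cell class, Foxp1 and the 3 genes most like the members. Some genes that this rule names are not reported here. What the library numbers stand for is not stated, so p-values measure the spread between libraries of the same mouse, which may be technical, and describe these 3 mice.

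Fragments per library were estimated from the steps between low FPKM values of single-transcript genes over 1500 nucleotides long, where 91.3% to 94.1% of values lay within 0.05 of a whole number. The values are FPKM and not counts, so these estimates served only as a guide to counting error and no count test was run. The deposited start positions appeared to count from 0 (the start plus 1 equalled the RefSeq start in 62.7% of genes with 1 transcript, the start itself in 2.96%) and were raised by 1. Sequences were taken from GENCODE vM21 (GRCm38, the same assembly as mm10), matched to the deposited transcripts through its RefSeq table. Alternatives were other pseudocounts (0.1), other minimum levels (none, or 5 FPKM), TPM, FPKM with the trend on transcript length taken out of every library, the highest transcript of each gene, a replicate block and leaving out each library. A variance prior with a trend, removal of a trend with GC content and a split of Cux1 were added after seeing the data.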

Additional observations from a re-analysis of the deposited data

Results flagged for a closer look

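Over the 8 libraries, the Cux1 transcripts with the homeodomain exons were lowest in mouse 3 replicate 2, at 2.22 FPKM. The gap to the next library, 2.8 FPKM in mouse 3 replicate 1, was 0.568 of the whole range, above Dixon's 95% limit for 8 values. Of 11 measures examined in this way, the 9 genes and both Cux1 classes, 1 passed that limit, and chance alone gives about 1 in 20. The 8 libraries come from 3 mice, so that they are not samples of a single group in the strict sense.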

How the results depend on the processing

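Of the 6 members lower in mouse 3, Neurod2, Tbr1, Fezf2 and Foxp2 passed under every alternative in which they were tested, and the count ranged from 4 to 6 when 1 library was left out. That count is among all 9 genes, and the genes in it were not the same in every setting. The count was 8 in TPM, where the median of all genes moved from 0.02 to -0.26 and the split of calls from 2650 higher and 2271 lower to 1025 and 5743. In TPM Cux2 (-0.49) and Rorb (-0.52) passed too. Over all genes tested, the F-test called 3310 of 13001 as reported, 5493 of 13001 in TPM and 2625 of 13001 with the length trend removed. With the highest transcript of each gene it called 2171 of 12830. The F-test called 5 members as reported, 8 in TPM, 3 with the highest transcript of each gene, 4 with the length trend removed and 0 to 6 with 1 library left out. The 0 came without mouse 3 replicate 2, where limma called 126 of 12998 genes and 6 members had an unadjusted p under 0.05. Signs turned for Cux1 in TPM (-0.19) and with the highest transcript (-0.02), and for Rorb with the length trend removed (0.05) and with the highest transcript (0.00). None of these passed, and the cause was not tested. The order of levels kept 6 to 8 of its 8 neighbouring pairs, and the pairs that changed places were Cux2 with Bcl11b, Neurod2 with Tbr1, and Cux1 with Neurod6. Foxp2 has no value at a minimum of 5 FPKM, nor has Rorb. With the replicate number as a block, 6 members were lower, beside 13.5% of all genes tested. The F-test then called 6 members, and 2995 of all 13001 genes tested. Deviations of libraries with the same number correlated at r = 0.00276 to 0.107 over 7 pairs, and 1 of these was above 0.1. Those of libraries with different numbers correlated at r = -0.135 to 0.0645 over 14 pairs. Whether the numbers mark a pairing was not tested. Fragments per library limit the lowest genes most.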

Other observations

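Markers of cortical layers that are not transcription factors were mixed. Of 16 such genes tested, 6 were lower in mouse 3, 1 was higher and 9 did not pass, with a median log2 difference of -0.16. Over all genes tested, 17.5% were lower and 20.4% were higher. Without mouse 3 replicate 2 the median of the list was -0.21. In TPM 12 of the 16 were lower, beside 44.2% of all genes tested. Parm1 had the largest difference, with 8.21 FPKM in mouse 3 and 12.6 FPKM in mice 1 and 2 (-0.56, limma adjusted p = 0.00446), and Whrn the smallest (-0.04). The gene that was higher was Pcp4, a calmodulin regulator of deep-layer and other neurons, named after its values were seen. It had 848 FPKM in mouse 3 and 604 FPKM in mice 1 and 2 (0.47, limma adjusted p = 0.0153). This difference was 0.17 in TPM (limma adjusted p = 0.215) and -0.20 with the length trend removed (adjusted p = 0.166). Without mouse 3 replicate 2 it was 0.23.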
